A study of Mus musculus with 4 samples.

Results

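The genes described here make sterols and fatty acids or control that synthesis, and were measured in CD45-negative cells of mesenteric and peripheral lymph nodes of the mouse. They are the 36 genes of a set of targets and regulators of the sterol regulatory element-binding proteins (SREBPs), found by gene name or older name among the non-control probes of an Agilent whole-genome array, and stand among 21392 genes tested. The set holds 16 sterol enzymes, 1 sterol transport gene, 5 sterol regulators and 14 genes of the fatty acid arm. All 36 had a probe, and 71 probes named them, 69 of which entered the comparison. Only Me1 was found through an older name, Mod1. Every member was well above background on all 4 arrays and no member probe was saturated.

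The series compared the mesenteric lymph node (mLN), the node of the intestine, with the peripheral lymph node (pLN), both from wild-type mice of the strain C57BL/6NCrl. Nodes were opened with collagenase 8 and the CD45-negative cells, those left when leukocytes are removed, were taken with magnetic beads, with a stated purity of 97.4% ± 2.0 (SD) for mLN and 97.5% ± 2.2 for pLN. Each node was sampled in 2 experiments, which gave 4 single-colour arrays on 1 slide: pLN 1 and mLN 1 from the first experiment, pLN 2 and mLN 2 from the second. The labels do not give the animals' age, which peripheral nodes were taken, how many animals were pooled or whether each experiment had its own animals. The p-values therefore reflect only how far these arrays lie apart, which may be technical. Levels are given as relative signal, in which the 75th percentile of each array is 1, and differences as log2 of mLN over pLN, with the standard error from limma after ± (n = 2 arrays per node throughout). Signals of different probes depend on the probe and are not compared with each other.

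Across the arrays, 74.0% to 81.1% of 41155 probes were well above background and the 75th percentile of the processed signal lay between 1686 and 1741. Stromal markers were present in both nodes. The summed relative signal of 11 such genes, Pdpn and Pdgfra first, was 533 and 585 in pLN and 533 and 650 in mLN. Most of it was Col3a1, Ccl19, Cxcl13 and Col1a1, so the sum says little about the other genes. None passed, beside 1.05% of all genes. At an unadjusted limma p under 0.05, 1 was higher in mLN, beside 7.8% of all genes, and 3 were lower, beside 6.88%. Named after their values were seen, these were Lyve1 (1.04 ± 0.17), and Pecam1 (−0.67 ± 0.22), Cdh5 (−0.55 ± 0.17) and Prox1 (−0.85 ± 0.25). The leukocyte list of 8 genes, led by Ptprc (which encodes CD45) and Cd3e, summed to 1.61 and 1.38 in pLN and to 1.71 and 1.62 in mLN. The 8 cell cycle genes, Mki67 and Top2a first, summed to 28.4 and 30.6 in pLN and to 27.6 and 25.7 in mLN. Most of that sum was Pcna (25.1 and 27.7 in pLN, 24.2 and 23.6 in mLN). All 8 had a negative difference, with a median of −0.20, and 5 were lower in both experiments, beside 34.9% of all genes. Of either list 0 passed, beside 1.05% of all genes.

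Cells make cholesterol from acetyl-CoA through mevalonate, farnesyl diphosphate, squalene and lanosterol. When membrane sterol is low, Scap carries SREBPs from the endoplasmic reticulum to the Golgi, where proteases free the part that enters the nucleus and binds sterol response elements, often beside CCAAT boxes bound by NF-Y. When sterol is high, Insig proteins hold Scap back. SREBP-2, from Srebf2, acts mainly on sterol genes, and SREBP-1c, an isoform from Srebf1, mainly on fatty acid genes, which insulin also induces and which fat and liver express highly.

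The array sees each gene through 60-base probes, and those that cross a splice junction can only match spliced RNA in full. Of the members' entering probes, 13 spanned more than 100 bases of the genome in the files' coordinates (mouse build mm8), as a probe over an intron does. The 4 below are examples from the sterol genes and the fatty acid arm, and do not stand for their groups. They lie at chr5:28405393-28405865 (Insig1, plus strand), chr5:4098039-4098445 (Cyp51, minus strand), chr14:62101042-62105282 (Fdft1, minus strand) and chr11:84158205-84162205 (Acaca, plus strand), and all bases are in lower case because no part of them is singled out.
Insig1: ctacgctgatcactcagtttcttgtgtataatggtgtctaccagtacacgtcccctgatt
Cyp51: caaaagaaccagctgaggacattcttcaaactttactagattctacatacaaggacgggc
Fdft1: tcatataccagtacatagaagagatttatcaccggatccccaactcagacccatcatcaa
Acaca: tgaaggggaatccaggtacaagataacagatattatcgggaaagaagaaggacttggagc
The Insig1 probe read 0.80 and 0.58 higher in mLN (log2, experiments 1 and 2), that of Cyp51 0.60 and 0.87 higher and that of Fdft1 0.44 and 0.69 higher. The second probe of Fdft1, which is not spliced, had −0.21 and 0.29. The Acaca probe had log2 ratios of −0.70 and −0.95, the lowest among the arm's spliced probes. It was dim, with a log2 relative signal of −4.57 and −5.32 in pLN and −5.27 and −6.26 in mLN. The other spliced probes of Acaca had differences of −0.55 and 0.42. The brightest Acaca probe, which is not spliced, had −0.92 and −0.20, and the spliced probe of Fads2 had 0.56 and 0.55. The 4 probes were chosen for printing after their values were seen. All 5 spliced probes of sterol enzymes were positive in both experiments, against 2 of 5 in the fatty acid arm, where 3 of the spliced probes belong to Acaca.

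Promoters of 29 of the 36 members were in the RefSeq table (build GRCm38.p6), 39 windows in all, each from 250 bases before to 50 after a start site. They were searched on both strands for TCACNCCAC, the letters of a sterol response element, and CCAAT, those of an NF-Y box; neither contains the other. TCACNCCAC was in 1.24% of all 32851 promoters and CCAAT in 37.4%. Among the sterol enzymes, 12 of 16 windows (75%) held CCAAT and 1 held TCACNCCAC. The regulators had CCAAT in 5 of 10 windows (50%) and the fatty acid arm in 8 of 13 (61.5%), with TCACNCCAC in 0 of either. A match is a description of letters and no match says only that these letters are not in the window. The 250 bases upstream are printed for Insig1 and Tm7sf2, which with Sqle had the largest differences that were at least 1.5-fold in both experiments. Those of Hmgcs1, the 1 sterol enzyme with TCACNCCAC, and of Fasn, for the fatty acid arm, were chosen after their values were seen. Capitals mark TCACNCCAC or CCAAT, the latter also as ATTGG, its form on the other strand. The stretches are chr5:28071162-28071411 (Insig1, plus strand), chr19:6067851-6068100 (Tm7sf2, minus strand), chr13:119690101-119690350 (Hmgcs1, plus strand) and chr11:120824548-120824797 (Fasn, minus strand).
Insig1: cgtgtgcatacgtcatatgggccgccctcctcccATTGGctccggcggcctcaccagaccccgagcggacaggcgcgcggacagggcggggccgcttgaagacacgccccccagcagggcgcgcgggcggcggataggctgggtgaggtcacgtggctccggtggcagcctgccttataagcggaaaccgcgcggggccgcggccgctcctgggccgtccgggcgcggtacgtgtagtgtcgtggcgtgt
Tm7sf2: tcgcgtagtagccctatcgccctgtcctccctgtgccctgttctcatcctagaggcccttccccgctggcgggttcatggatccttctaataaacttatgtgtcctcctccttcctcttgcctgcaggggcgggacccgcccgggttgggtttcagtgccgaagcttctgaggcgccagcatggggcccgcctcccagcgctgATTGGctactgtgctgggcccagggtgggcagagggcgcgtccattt
Hmgcs1: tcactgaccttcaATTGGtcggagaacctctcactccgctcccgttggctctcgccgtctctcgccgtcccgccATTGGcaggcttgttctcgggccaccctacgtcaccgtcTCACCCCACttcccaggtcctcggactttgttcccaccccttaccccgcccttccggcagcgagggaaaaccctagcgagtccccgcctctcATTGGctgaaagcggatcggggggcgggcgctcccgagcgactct
Fasn: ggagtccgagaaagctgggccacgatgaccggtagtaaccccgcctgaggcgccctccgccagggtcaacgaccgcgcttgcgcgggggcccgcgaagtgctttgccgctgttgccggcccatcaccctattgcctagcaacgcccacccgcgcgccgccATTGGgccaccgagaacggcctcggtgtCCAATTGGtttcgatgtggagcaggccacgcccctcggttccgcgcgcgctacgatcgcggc
Counted from the start site, the TCACNCCAC of Hmgcs1 begins at −137, and CCAAT boxes lie upstream at −237, −176 and −45. Insig1 has a CCAAT box at −216 and Tm7sf2 at −47, and Fasn has CCAAT boxes at −90, −62 and −59, the last of which overlap.

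The series title concerns dietary lipid in stromal cells of the mLN, and the comparison of the nodes sets the lipid synthesis genes of gut-draining stroma against those of peripheral stroma. Of the 16 sterol enzymes, 12 had both mLN arrays above both pLN arrays, beside 20.6% of all genes. These 12, picked by that direction, read 1.44- to 2.30-fold higher in mLN. The others, Pmvk, Ebp, Mvk and Acat2, differed by −0.18 to 0.17 (log2), and the median of all 16 was 0.62. Of the regulators, Insig1 and Srebf2 also read higher on both mLN arrays, as did Srebf1 (0.15) and Insig2 (0.17) by less. The fatty acid arm had no shared direction, with 4 of 14 genes above and 3 below on both mLN arrays. None of the 36 members passed the adjusted threshold of 0.05 (limma, Benjamini-Hochberg over all genes tested), which 1.05% of all genes did, 0.776% higher and 0.276% lower in mLN. The lowest adjusted p of a member was 0.120, for Tm7sf2. At an unadjusted p under 0.05, 13 members were higher in mLN, beside 7.8% of all genes, and 0 were lower, beside 6.88%. With the experiment as a block the counts were 0 past the adjusted threshold and 14 higher at the unadjusted one. These 13 were 10 sterol enzymes, 2 regulators and 1 gene of the fatty acid arm. The count was 2 without pLN replicate 1, 4 without pLN replicate 2, 7 without mLN replicate 2 and 17 without mLN replicate 1, and 0 with a normexp background correction. The smallest difference among the 225 genes that did pass was 1.33 (absolute log2), larger than the largest among the members, 1.20. Data were simulated with few genes changed and with spreads drawn at random from all genes, so they match the members only roughly. There the fit called 0.156% of genes given a difference of 1 (absolute log2) and 45.2% of those given 2. That no member passed therefore says little about differences of this size.

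**Figure D1:**
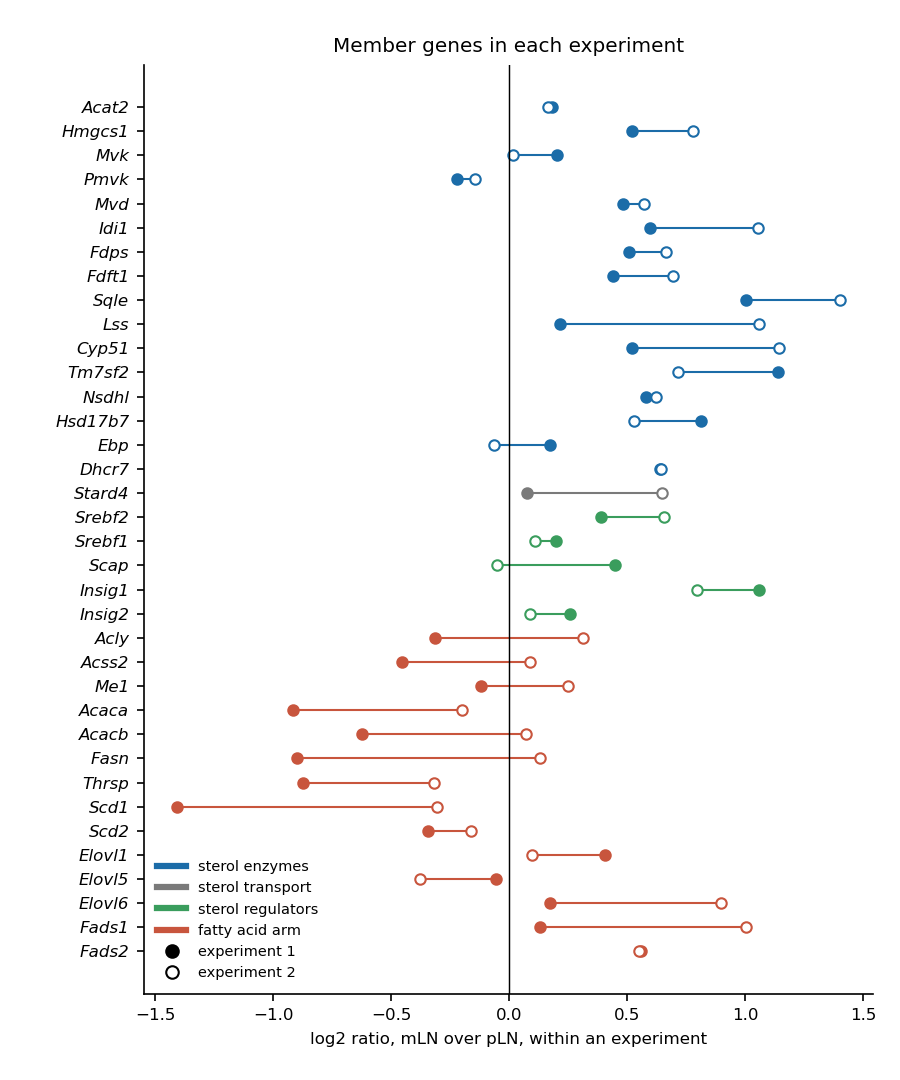
Log2 ratio of mLN over pLN for each of the 36 genes (rows, in pathway order), within experiment 1 (filled points) and experiment 2 (open points), each from 1 array per node, with a line joining the pair; colours give the group. The sterol enzymes lie right of 0 in both experiments for 14 of 16 genes, and the fatty acid arm for 4 of 14, with 5 of its genes left of 0 in both.

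Among the steps from acetyl-CoA to farnesyl diphosphate, Hmgcs1, Mvd, Idi1 and Fdps separated the nodes, and Acat2, Mvk and Pmvk did not read higher on both mLN arrays. Hmgcs1, which makes HMG-CoA from acetoacetyl-CoA, had relative signals of 4.32 and 5.24 in pLN 1 and 2 and 6.19 and 8.99 in mLN 1 and 2. Idi1, which isomerises isopentenyl diphosphate, read 3.09 and 3.34 in pLN and 4.66 and 6.93 in mLN. Both genes were higher on each mLN array than on either pLN array, with the highest value on mLN 2. The differences were 0.65 ± 0.24 for Hmgcs1 and 0.82 ± 0.24 for Idi1. The files place both Idi1 probes on chromosome 2 (mm8), while the promoter of Idi1 lies on chromosome 13 (GRCm38.p6). What this means for the Idi1 signal was not tested. Fdps, which joins the isoprene units into farnesyl diphosphate, read 2.97 and 2.82 in pLN and 4.21 and 4.47 in mLN, a difference of 0.58 ± 0.14. Mvd, the decarboxylase that yields isopentenyl diphosphate, read 0.368 and 0.417 in pLN and 0.514 and 0.619 in mLN, a difference of 0.53 ± 0.17. For these genes too the nodes did not overlap. The adjusted p (limma) of the 4 genes lay between 0.172 for Fdps and 0.346 for Hmgcs1.

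The kinases of this part of the pathway behaved otherwise. Pmvk, phosphomevalonate kinase, read 3.85 and 3.68 in pLN and 3.31 and 3.33 in mLN, so that it was the only sterol enzyme with both mLN arrays below both pLN arrays (−0.18 ± 0.13, adjusted p = 0.639). Mvk, mevalonate kinase, read 0.910 and 0.892 in pLN and 1.04 and 0.903 in mLN, with mLN 2 inside the range of pLN. Acat2, the cytosolic thiolase that makes acetoacetyl-CoA, read 1.35 and 1.54 in pLN and 1.53 and 1.72 in mLN, which overlap. Over the 7 genes of these steps the median difference was 0.53, with 0.48 in experiment 1 and 0.57 in experiment 2.

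From squalene onward, 8 of 9 enzymes were higher on both mLN arrays than on both pLN arrays, beside 20.6% of all genes, and the median difference was 0.64. Sqle, squalene epoxidase, a rate-limiting step of the pathway, had the largest difference of all members, 1.20 ± 0.31 (2.30-fold, adjusted p = 0.201). Its probe, at chr15:59160510-59160569 on mm8, read 2.27 and 2.91 in pLN and 4.56 and 7.67 in mLN. The nodes were well apart, and mLN 2 stood above mLN 1. Tm7sf2, a sterol C14 reductase, read 1.04 and 1.18 in pLN and 2.29 and 1.93 in mLN (0.93 ± 0.17, limma adjusted p = 0.120). Cyp51, the lanosterol demethylase, read 0.691 and 0.716 in pLN and 0.990 and 1.58 in mLN. Its difference was 0.83 ± 0.26, and it was larger in experiment 2 (1.14) than in experiment 1 (0.52). Lss, which closes the sterol rings as lanosterol synthase, had the same order to a greater degree. It read 0.372 and 0.334 in pLN and 0.432 and 0.696 in mLN, with ratios of 0.22 in experiment 1 and 1.06 in experiment 2.

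The remaining late enzymes were more even between experiments. Fdft1, squalene synthase, read 2.66 and 2.86 in pLN and 3.60 and 4.63 in mLN (0.56 ± 0.18). Its second, dimmer probe had 0.04, with −0.21 in experiment 1 and 0.29 in experiment 2. Nsdhl, a sterol dehydrogenase of C4 demethylation, read 1.41 and 1.49 in pLN and 2.10 and 2.29 in mLN (0.60 ± 0.14). Dhcr7, which makes cholesterol from 7-dehydrocholesterol, read 1.20 and 1.41 in pLN and 1.86 and 2.20 in mLN, and its ratio was 0.64 in both experiments. On the brightest probe of all 3 genes each mLN array was above each pLN array. Hsd17b7, a ketosteroid reductase of the same demethylation, read 0.744 and 0.635 in pLN and 1.31 and 0.916 in mLN, and here mLN 1 was the higher array. Ebp, the sterol isomerase, was the exception among the late enzymes: it read 17.1 and 18.2 in pLN and 19.2 and 17.4 in mLN, with no separation (0.05 ± 0.14, adjusted p = 0.925). A normexp background gave it −0.26.

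Over all 16 sterol enzymes, 12 had both mLN arrays above both pLN arrays, beside 20.6% of all genes, and 1, Pmvk, had both below, beside 25%. By direction alone, 14 were higher in mLN in both experiments, beside 28% of all genes, 1 was lower in both, beside 34.9%, and 1 had opposite signs. At least 1.5-fold in both experiments were 4 of them, Sqle, Idi1, Tm7sf2 and Dhcr7, beside 5.39% of all genes. The median difference was 0.62, with 0.51 in experiment 1 and 0.65 in experiment 2, beside −0.03 over all genes. With normexp the median of all genes moved to 0.38, that of the sterol enzymes was 0.46, and 10 of 16 lay above the median of all genes, against 15 of 16 in the reported setting. In bulk cells, a difference in the share of cells that carry an RNA and a difference in the RNA per cell cannot be told apart.

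**Figure D2:**
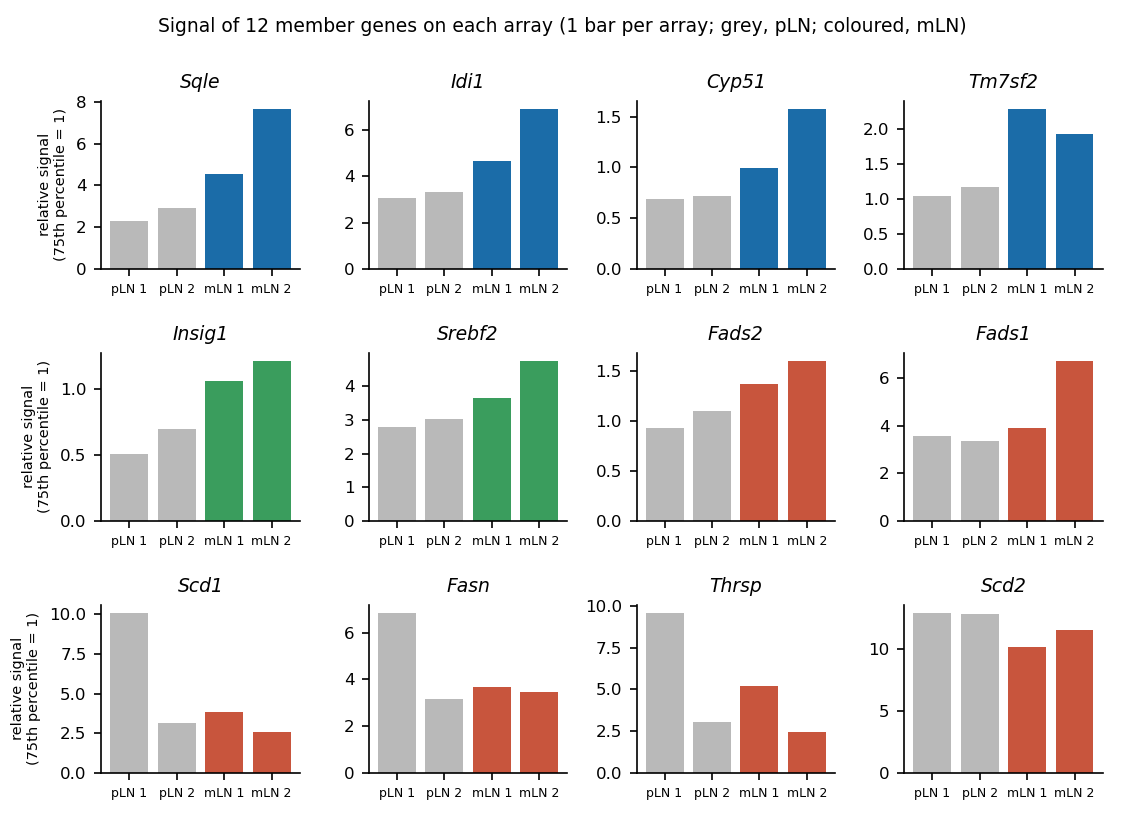
Relative signal (75th percentile of each array = 1) of 12 of the genes on each of the 4 arrays, 1 bar per array, grey for pLN and coloured for mLN; each panel has its own axis from 0. In Sqle, Idi1, Cyp51, Tm7sf2, Insig1, Srebf2, Fads2 and Fads1 both mLN bars stand above both pLN bars, while Scd1, Fasn and Thrsp have their highest bar on pLN 1.

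Of the regulators, Insig1 and Srebf2 had the larger differences, and Srebf1, Scap and Insig2 differed by at most 0.20. Insig1, itself a target of SREBPs that holds Scap in the endoplasmic reticulum, read 0.506 and 0.696 in pLN and 1.05 and 1.21 in mLN. The nodes were apart in both experiments, by 1.06 and 0.80, and the difference was 0.93 ± 0.22 (adjusted p = 0.168). Its second probe, the spliced one printed above, had 0.69. Srebf2, which encodes SREBP-2, read 2.79 and 3.02 in pLN and 3.65 and 4.76 in mLN. Its difference was 0.52 ± 0.19 (adjusted p = 0.328), and 3 of its 4 probes were positive in both experiments. The dimmest had 1.17 and −0.23. With normexp Srebf2 had 0.21, below the median of all genes there. Srebf1, which encodes SREBP-1, read 2.73 and 2.99 in pLN and 3.13 and 3.22 in mLN (0.15 ± 0.14), also without overlap. With normexp its value was −0.10.

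Scap, the escort of the SREBPs, read 3.31 and 3.77 in pLN and 4.52 and 3.64 in mLN, and the ranges overlapped. Insig2, the second Insig protein, read 3.60 and 3.39 in pLN and 4.29 and 3.60 in mLN, so that mLN 2 only just reached above pLN 1. A second probe had −0.04, and the third cleared background well on neither mLN array. The median of the 5 regulators was 0.20, with 0.39 in experiment 1 and 0.11 in experiment 2, and 4 of 5 had both mLN arrays above both pLN arrays, beside 20.6% of all genes, Insig2 by the narrowest margin. Stard4, which moves cholesterol between membranes and is an SREBP target, read 5.66 and 5.70 in pLN and 5.97 and 8.94 in mLN. Only mLN 2 stood clear of pLN, and the ratios were 0.08 and 0.65 (0.36 ± 0.24, adjusted p = 0.594).

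In the fatty acid arm the genes that supply substrate or build palmitate did not differ in one direction, and those of the highest spread were high on pLN 1. Acly, which cuts citrate into cytosolic acetyl-CoA, read 3.71 and 2.65 in pLN and 2.98 and 3.29 in mLN, a difference of −0.003 ± 0.22 whose sign followed the scaling (0.01 with median scaling). Acss2, which makes acetyl-CoA from acetate, read 0.729 and 0.528 in pLN and 0.532 and 0.561 in mLN. Me1, malic enzyme, a source of NADPH, read 2.16 and 1.63 in pLN and 1.98 and 1.94 in mLN. In all 3, both mLN arrays lay between the 2 pLN arrays. Acaca, the cytosolic acetyl-CoA carboxylase that commits carbon to fatty acids, read 0.511 and 0.307 in pLN and 0.271 and 0.267 in mLN. Both mLN arrays were below both pLN arrays, by 0.92 in experiment 1 and 0.20 in experiment 2 (−0.56 ± 0.28, adjusted p = 0.482). Its 4 probes ranged from −0.82 to 0.42. It had −0.19 without pLN 1, and 0.05 with normexp. Acacb, the mitochondrial carboxylase that acts on fatty acid oxidation, read 0.632 and 0.499 in pLN and 0.409 and 0.524 in mLN (−0.28 ± 0.21).

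Fasn, Scd1 and Thrsp varied more between the pLN arrays than between the nodes in experiment 2. Fasn, fatty acid synthase, read 6.85 on pLN 1 and 3.17 on pLN 2, against 3.67 and 3.47 in mLN. Scd1, the desaturase that makes oleate, read 10.1 on pLN 1 and 3.17 on pLN 2, against 3.81 and 2.56. Thrsp (Spot 14), a lipogenic protein of fat and liver, read 9.59 on pLN 1 and 3.05 on pLN 2, against 5.23 and 2.44. In each gene pLN 1 was the highest array and pLN 2 lay within or below the range of mLN. The fold between the pLN arrays was 2.16 for Fasn, 3.19 for Scd1 and 3.15 for Thrsp. Their differences between nodes were −0.39 ± 0.40, −0.86 ± 0.61 and −0.60 ± 0.69 (adjusted p = 0.754, 0.628 and 0.783). Without pLN 1, Fasn had 0.17, Thrsp 0.23 and Scd1 −0.02.

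Genes that elongate and desaturate fatty acids included the only ones of the arm that were higher on both mLN arrays. Fads2, the delta-6 desaturase, read 0.931 and 1.10 in pLN and 1.37 and 1.60 in mLN. It had near-equal ratios in the experiments, 0.56 and 0.55 (0.55 ± 0.17, adjusted p = 0.268). Fads1, the delta-5 desaturase, read 3.58 and 3.36 in pLN and 3.91 and 6.73 in mLN, with most of the difference on mLN 2 (0.56 ± 0.30). Elovl6, which extends palmitate to stearate, read 1.49 and 1.38 in pLN and 1.67 and 2.57 in mLN (0.53 ± 0.25). Elovl1, an elongase of saturated very long chains, read 7.48 and 8.93 in pLN and 9.90 and 9.55 in mLN (0.25 ± 0.16), and −0.08 with normexp. Elovl5 and Scd2 were lower on both mLN arrays. Elovl5, which extends polyunsaturated chains, read 15.9 and 16.9 in pLN and 15.3 and 12.97 in mLN. Scd2, a second stearoyl-CoA desaturase, read 12.9 and 12.8 in pLN and 10.2 and 11.5 in mLN. Their differences were −0.22 ± 0.16 and −0.25 ± 0.15, with adjusted p of 0.633 and 0.537.

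Over the 14 genes of the fatty acid arm, 4 (beside 20.6% of all genes) had both mLN arrays above and 3 (beside 25%) had both below those of pLN. In both experiments 4 were higher (beside 28%), 5 were lower (beside 34.9%) and 5 had opposite signs, and 0 reached 1.5-fold in both in either direction, beside 5.39% of all genes higher and 4.34% lower. The median difference was −0.20, with −0.33 in experiment 1 and 0.09 in experiment 2. It was 0.15 without pLN 1.

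Most probes of the sterol enzymes had the direction reported for their gene. Of 32 entering probes of sterol enzymes, 28 were positive in both experiments, 2 were negative in both, both of Pmvk, and 2 had opposite signs. Of 11 sterol enzymes with several probes, 10 had only positive differences, Fdft1 with just 0.04 on its second probe. Of 23 entering probes of the fatty acid arm, 6 were positive in both, 8 were negative in both and 9 had opposite signs. The regulators had 7 positive, 1 negative (the dim Insig2 probe) and 3 opposite among 11 probes, and all 3 probes of Stard4 were positive. Over all members, 18 of the 21 genes with several entering probes had probes of 1 sign.

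**Figure D3:**
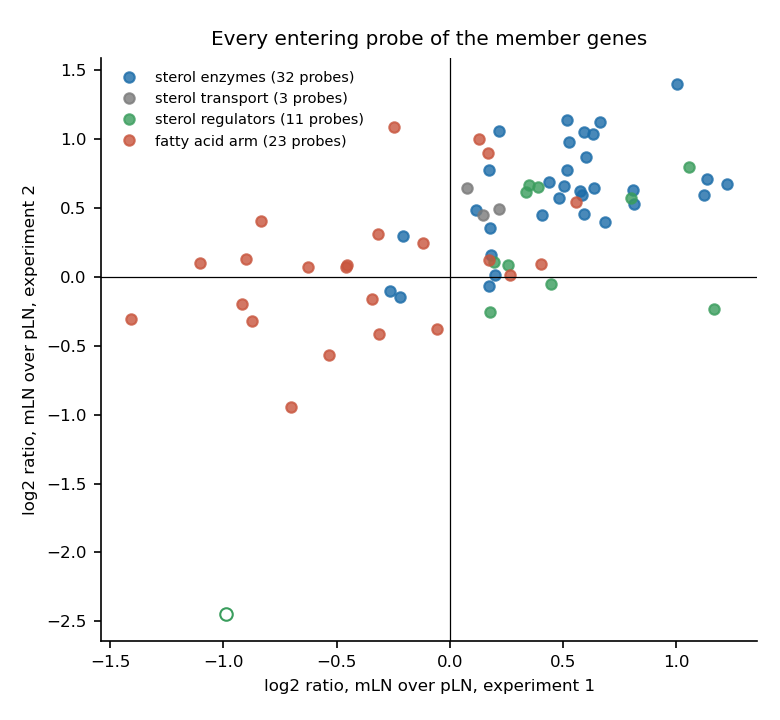
Log2 ratio of mLN over pLN in experiment 1 (horizontal) against experiment 2 (vertical) for each of the 69 entering probes, coloured by group; probes of 1 gene share its RNA. Sterol enzyme probes gather at the upper right (28 of 32), and the fatty acid probes lie mostly left of 0 in experiment 1, above and below 0 in experiment 2; the open point, a probe of Insig2, cleared background well on neither mLN array, so its place shows only that it was dimmer there.

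The spread between arrays of the same node differed between the arms. In pLN the median absolute difference between experiments was 0.37 for the fatty acid arm, 0.13 for the sterol enzymes and 0.18 for all genes. In mLN it was 0.20, 0.26 and 0.23. Of the fatty acid arm, 11 of 14 genes were higher on pLN 1 than on pLN 2, against 5 of 16 sterol enzymes. Among the sterol enzymes, 12 of 16 were higher on mLN 2 than on mLN 1.

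Several markers of fat cells also read higher on pLN 1 than on pLN 2. Adipoq (adiponectin) read 2.23 on pLN 1 and 0.464 on pLN 2, and 2.83 and 0.306 on mLN 1 and 2. Plin1, which coats lipid droplets, read 0.225 and 0.089 in pLN and 0.565 and 0.441 in mLN, and was over 2-fold higher in mLN in both experiments. Cidec, another droplet protein, named outside the rule given below, read 0.586 and 0.079 in pLN and 0.312 and 0.069 in mLN. Both nodes had the higher Cidec signal in experiment 1. Cfd (adipsin) read 11.1 and 2.76 in pLN and 5.09 and 0.494 in mLN. Cidea, a lipid droplet protein abundant in brown fat, read 3.91 and 0.319 in pLN and 0.082 and 0.083 in mLN. Ucp1, the uncoupling protein of brown fat, read 2.56 and 0.132 in pLN and was not well above background in mLN, where it was at least 64.5-fold lower (limma adjusted p = 0.122). Without pLN 1 that limit was 14.6-fold, and without pLN 2 it was 284-fold. Of the 12 adipocyte markers 10 were tested and 0 passed, and their sum was 247 and 189 in pLN and 235 and 139 in mLN, most of it Fabp4, which endothelial cells also express. Lep and Pck1 were not tested. In both nodes Fasn, Scd1 and Thrsp, and the markers Adipoq, Cfd and Cidec, read higher in experiment 1 than in experiment 2. These genes were picked from their lists. In mLN the folds were 1.06 for Fasn, 1.49 for Scd1 and 2.14 for Thrsp. For the markers they were 9.24 (Adipoq), 10.3 (Cfd) and 4.51 (Cidec), and Cidea did not read higher in experiment 1 in mLN. Of the 14 genes of the fatty acid arm, 7 were higher on mLN 2 than on mLN 1. The part of fat cells in the fatty acid arm was not tested.

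**Figure D4:**
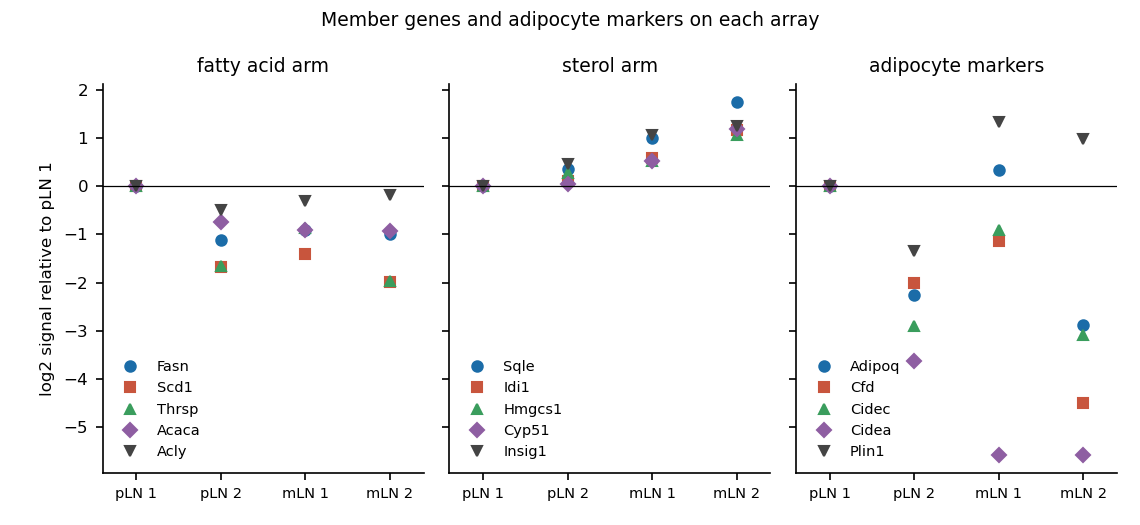
Log2 signal of each gene relative to its own value on pLN 1, on the 4 arrays, for 5 genes of the fatty acid arm (left), 5 of the sterol arm (middle) and 5 adipocyte markers (right). Fasn, Scd1 and Thrsp are at their highest on pLN 1, the sterol genes on mLN 2, and the markers Adipoq, Cfd and Cidec are lower on pLN 2 and mLN 2 than on the other array of the same node.

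Markers of other cells that differ between the nodes were also measured. The 6 mesothelial genes, led by Upk3b and Msln, summed to 3.43 and 4.89 in pLN and to 35.8 and 26.5 in mLN, and 5 passed as higher in mLN, with Wt1 and Bnc1 not well above background in pLN. The 10 pancreatic acinar genes, led by Cel and Cpa1, summed to 23.4 and 1.20 in pLN and to 1074 and 396 in mLN, with Amy2a5 not well above background in pLN and passing. The 12 genes of mammary and glandular epithelium, led by Csn3 and Csn2, summed to 12.3 and 20.2 in pLN and to 8.48 and 6.10 in mLN. Csn3, Wfdc2 and Esrp1 passed as lower and Csn2 as higher in mLN, and Elf5 and Esrp1 were not well above background there. Of the 8 sebaceous markers 4 were tested and 0 passed, and Mc5r and Awat2, the first of that list, were not tested. The acinar and mesothelial sums were lower on mLN 2 than on mLN 1, and of the 12 sterol enzymes that were higher in mLN without overlap, 10 were higher on mLN 2 and 2, Tm7sf2 and Hsd17b7, were lower there. The part of these cells in the sterol result was not tested.

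Set against each other, the arms differed in both experiments. The sterol enzyme median exceeded that of the fatty acid arm by 0.82 over both experiments, by 0.84 in the first and by 0.56 in the second. All 16 sterol enzymes had a difference above the fatty acid median, and 11 were above every gene of the fatty acid arm. These counts moved with single arrays: they were 12 and 7 without pLN 1, 15 and 4 without mLN 1, 16 and 6 without pLN 2 and 15 and 8 without mLN 2. With normexp they were 14 and 8. The gap is between medians within the same arrays, so an equal shift of all genes cancels in it. A change that differs between genes does not cancel, and with normexp the gap was 0.54, against 0.82 in the reported setting. Without pLN 1 it narrowed to 0.40, and it was 0.53 without mLN 2. In experiment 1, 15 of 16 sterol enzymes and 4 of 14 fatty acid genes were positive, and in experiment 2, 14 of 16 and 9 of 14.

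**Figure D5:**
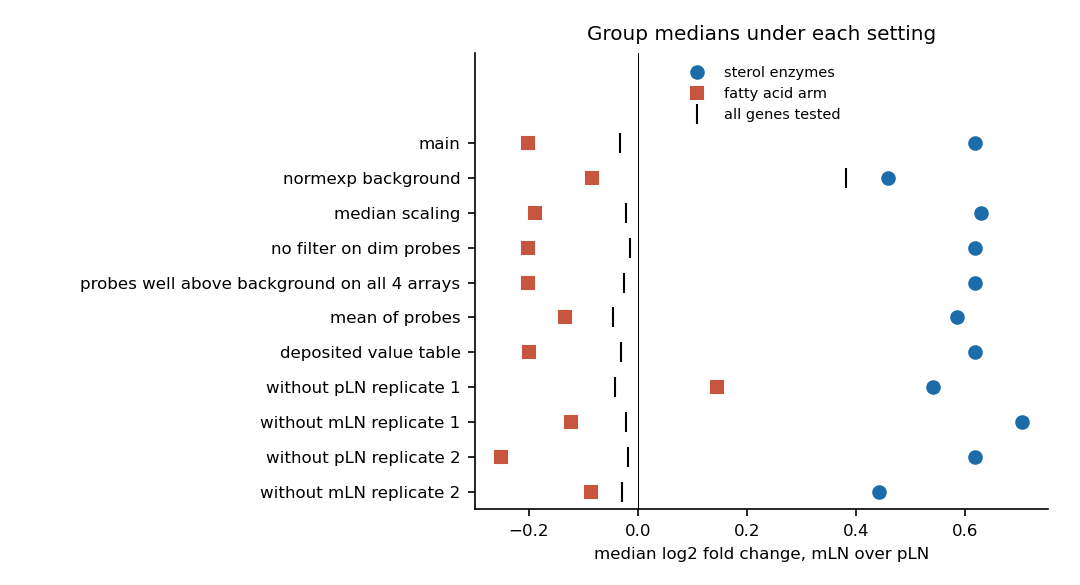
Median log2 fold change of mLN over pLN for the 16 sterol enzymes (circles), the 14 genes of the fatty acid arm (squares) and all genes tested (bars), in the reported setting (main) and under 10 alternatives. The circles lie right of the squares in every row, from 0.44 to 0.70 for the sterol enzymes; the squares cross 0 only without pLN replicate 1, and the bar for all genes moves to 0.38 only with normexp.

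Other genes of the pathway, from a list of 42 of which 40 were tested, were closer to the rest of the array. None passed the adjusted threshold. At an unadjusted p under 0.05, 4 were higher (7.8% of all genes) and 2 lower (6.88%), and their median was 0.08. Of 13 further sterol genes, 8 had both mLN arrays above both pLN arrays, beside 20.6% of all genes. In 1 both were below, beside 25%, and the median was 0.18. Msmo1, the methyl sterol oxidase that works with Nsdhl, read 7.88 and 9.31 in pLN and 12.7 and 16.2 in mLN (0.74 ± 0.20, adjusted p = 0.205). Sc5d, the sterol C5 desaturase, read 4.67 and 4.89 in pLN and 5.28 and 6.20 in mLN (0.26 ± 0.16). Both are enzymes of the same late steps and had no overlap between nodes.

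The 9 further regulators had a median of −0.06, and included the site-1 and site-2 proteases that cut SREBPs. Mbtps1 read 7.47 and 8.12 in pLN and 8.80 and 8.97 in mLN, with no overlap (0.19 ± 0.14, adjusted p = 0.636). Mbtps2 read 0.216 and 0.263 in pLN and 0.157 and 0.260 in mLN, which overlap (−0.24 ± 0.30). Of 18 tested genes of fatty acid and glyceride synthesis, 6 were higher in both experiments, beside 28% of all genes. Lower in both were 3, beside 34.9%, and the median was 0.06. Elovl2 and Elovl4 had 0.10 ± 0.22 and −0.16 ± 0.40. Dgat2, which makes triglyceride, read 1.15 and 0.538 in pLN and 0.568 and 0.255 in mLN, over 2-fold lower in both experiments (−1.05 ± 0.56, adjusted p = 0.502). The spread within each node was as large as the difference, and in the paired fit its adjusted p was 0.080. The genes of this list under an unadjusted p of 0.05, named after their values were seen, were Fads3 (0.63 ± 0.21) and Gpam (1.00 ± 0.27), higher in mLN, and Elovl7 (−1.29 ± 0.30) and Acss1 (−0.44 ± 0.15), lower.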

How the data were processed

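RNA of CD45-negative cells from mLN and pLN was measured on 4 arrays, 2 per node, grouped by the sample titles. Per the labels' protocols, nodes were digested with 1 mg/ml collagenase in 10% serum for 30 min at 37 degrees. A sample's 80 ng of total RNA was amplified and labelled with a single dye. The deposited intensity values are the processed signals, with background and spatial trend removed, per the file headers. The software was Agilent Feature Extraction 9.5.3.1, per the submitters' processing notes. Other deposited columns flag each spot, with 0 or 1, for signal well above background, saturation and outliers. All 4 arrays lay on 1 slide with 1 scan, so no slide effect could be estimated. The deposited value table holds the same intensity times 1 factor per array (0.865, 0.890, 0.862 and 0.867 for pLN 1, pLN 2, mLN 1 and mLN 2), found by comparing the values and not stated in the labels. Its values are linear, with medians of 169, 167, 172 and 161.

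Control spots and outlier spots were dropped, spots of a probe were averaged, and each array's 75th percentile of log2 signal was subtracted. Of 41174 probes, 19 had no spot left on some array. Probes entered the comparison if, in at least 1 node, both arrays had them well above background (31883 probes), and the brightest entering probe stood for each of 21392 genes. Names came from RefSeq accessions, symbols or synonyms, and 8072 probes kept the files' name. Nodes were compared with limma 3.58.1 (R 4.3.3; lmFit and eBayes, no block; 4.35 degrees of freedom with the prior), tested on simulated data, with Benjamini-Hochberg adjustment over all genes and a threshold of 0.05. The number of arrays limits the precision: with 2 arrays a node an exact permutation test knows 3 splits, and its smallest p is 0.333. A fold of a marker not well above background in a node is a bound against the lowest signal well above background. A ratio given for an experiment has 1 array on each side. The labels number the experiments, which the design text calls independent approaches, so the numbers pair an mLN with a pLN sample. The deviations of experiment 2 from experiment 1 in the nodes correlated with r = 0.246 across genes, and the block was fitted as an alternative.

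The members, gene lists, tests and alternatives were chosen with earlier results of these data known. All 36 members are described. The other pathway and marker genes named here passed, differed 2-fold or more in the same direction in each experiment, or were the first 2 of their list, unless said otherwise. Not every marker gene that met these terms is named. Genes that make up most of a sum are named as such. Promoters were printed for the 3 members with the largest ratio among those of 1.5-fold or more in the same direction in each experiment, where the table held them. Alternatives were another background, scaling, filter, probe choice, variance model and value table, the block, and each array left out. Counts at an unadjusted p, the order of the arms and the limit of Ucp1 under these were added after seeing the data. Probe coordinates are those of the files and were not converted. No annotation of that build was used here, so exons and introns were not assigned. The values of 1 other pathway gene are not reported here.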

Additional observations from a re-analysis of the deposited data

How the results depend on the processing

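No member and no other pathway gene passed the adjusted threshold under any alternative that kept all 4 arrays. In the simulated data, which match the members only roughly, the reported fit called 0.156% of genes given a log2 difference of 1. This outcome therefore says little about the members. The count over all genes, 225 as reported, was 0 with normexp, 354 with median scaling, 44 with no filter on dim probes and 441 with an intensity trend in the variance. It was 333 with the replicate block, and 0 to 190 with 1 array left out (0 without either pLN array). With an intensity trend the lowest adjusted p of a member was 0.059, and with the replicate block, which pairs samples by experiment, it was 0.089 (both limma); the block changed no member's call. The 13 members and 10 sterol enzymes at an unadjusted p under 0.05 were 0 and 0 with normexp. Leaving out each array in turn gave 2 to 17 members and 1 to 11 sterol enzymes. The sterol enzyme median was 0.46 with normexp, where the median of all genes was 0.38, and the fatty acid median minus the sterol median was −0.54. Over the 4 fits without an array, the sterol median ranged from 0.44 to 0.70, the regulators' from 0.17 to 0.33, the fatty acid median from −0.25 to 0.15, and the difference of the arms from −0.87 to −0.40. Of the members' log2 differences, these turned sign: with normexp Ebp (−0.26), Insig2 (−0.0053), Srebf1 (−0.10), Acaca (0.050), Elovl1 (−0.075) and Me1 (−0.047); with median scaling Acly (0.0085); and with the mean of probes Insig2 (−0.53), which includes a probe not well above background in mLN. With 1 array left out the ranges that crossed 0 were Ebp −0.018 to 0.12, Acly −0.25 to 0.24, Fasn −0.94 to 0.17, Acss2 −0.42 to 0.048, Thrsp −1.43 to 0.23 and Me1 −0.14 to 0.27. The cause of these changes was not tested. A motif without the free base was in the same 1 sterol enzyme promoter. Of the members' entering probes, that 1 of Insig2 was the only one that cleared background well on neither array of a node.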
